A study of Mus musculus with 4 samples.

Results

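The histone genes of cultured mouse muscle stem cells were taken as every gene in the tables whose symbol begins with H1f, H2af or H3f, or with Hist, a cluster number from 1 to 4 and the letter h. They numbered 52 of the 13772 genes: 41 Hist genes of the replication-dependent clusters, 10 variant genes outside them, and the antisense transcript H3f3aos. No measured value entered the choice. Muscle stem cells of wild-type C57BL/6 mice, young or aged, were kept for a week on silicone (polydimethylsiloxane) that was soft (12 kPa) or stiff (29 kPa), all in DMEM with 10% FBS and 1% Penicillin/Streptomycin. The cells were then profiled with the 10x Chromium Single Cell 3′ v3 kit, which counts each captured RNA molecule once by its unique molecular identifier (UMI). There was 1 library for each of the 4 combinations. Lists of 4 values below give young soft and young stiff first and then aged soft and aged stiff. The labels give neither the ages in months nor the number of animals behind a library. A difference between libraries therefore had no replicate and was not tested, and intervals on such ratios cover counting error only.

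Histones package DNA: a core of H2A, H2B, H3 and H4 carries the wrapped DNA, and linker histone H1 binds where the DNA enters and leaves. The clustered genes supply the bulk of new histone during S phase, and their messages classically lack a poly(A) tail and end just after a 3′ stem-loop that is bound by SLBP. The variant genes, such as H3f3a and H3f3b (both for the same H3 variant), H2afz, H2afx and H1f0, mostly give polyadenylated messages and are also transcribed outside S phase. A 3′ kit primed on poly(A) therefore reads clustered genes mainly through polyadenylated forms of their messages.

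The stem-loop is shown because it separates the usual classes of histone message. In GENCODE M21 transcripts (build GRCm38; the build and annotation of the deposited tables are not given in the sources used here), the 16-base histone stem-loop pattern was found in 31 of 41 clustered genes, in 1 of 10 variant genes, H2afx, and in 0.315% of 21901 protein-coding genes. Among the members with a match, 20 shared the same 16 bases. The pattern was not found in Hist1h1a, Hist1h1b or Hist1h2bc. The annotated transcripts of Hist1h1a and Hist1h1b are only 741 and 743 bases long. A stem-loop beyond an annotated end would be missed, so a missing match does not show that the gene lacks it. The stem-loop is in capitals below, with up to 5 transcript bases on either side.
Hist1h2ap: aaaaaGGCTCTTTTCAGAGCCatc
Hist1h1e: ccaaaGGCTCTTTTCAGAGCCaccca
Hist1h1c: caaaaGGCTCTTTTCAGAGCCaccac
Hist3h2a: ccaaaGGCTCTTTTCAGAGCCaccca
Hist1h4d: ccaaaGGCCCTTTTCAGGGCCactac
Hist2h2ac: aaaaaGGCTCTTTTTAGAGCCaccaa
H2afx: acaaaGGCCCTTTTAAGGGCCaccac
The annotated transcript continued for 3 bases after the stem-loop in Hist1h2ap, 57 in Hist2h2ac, 770 in Hist1h4d, 822 in H2afx, 840 in Hist1h1c, 1153 in Hist1h1e and 1643 in Hist3h2a. The first 2 thus end close to the stem-loop and the others run on.

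The H1 genes are also shown by their promoters, since linker genes of 1 cluster differed in direction below. RefSeq promoters (GRCm38.p6) were matched for 35 clustered and 9 variant genes, and the 150 bases before the start site were searched on both strands for the H1 box AAACACA, for CCAAT, for TATAAA and for the octamer ATTTGCAT. The H1 box was present in 6 of the 35 clustered and 0 of the 9 variant promoters (3.5% of 27025 promoters), and CCAAT in 30 and 5 (25.3%). TATAAA was present in 15 and 1 (8.08%) and the octamer in 8 and 1 (1.02%). Motif letters are in capitals below. The windows are chr13:21780626-21780775 on the minus strand for Hist1h1b, chr13:23622559-23622708 on the minus strand for Hist1h1e, chr13:23738657-23738806 on the plus strand for Hist1h1c and chr15:79028062-79028211 on the plus strand for H1f0.
Hist1h1b: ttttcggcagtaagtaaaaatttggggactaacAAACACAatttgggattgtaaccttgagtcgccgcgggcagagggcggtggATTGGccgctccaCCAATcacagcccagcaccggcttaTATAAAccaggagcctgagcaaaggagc
Hist1h1e: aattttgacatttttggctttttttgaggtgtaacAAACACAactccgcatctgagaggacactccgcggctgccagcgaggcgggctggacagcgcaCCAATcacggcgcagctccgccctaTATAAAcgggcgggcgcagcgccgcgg
Hist1h1c: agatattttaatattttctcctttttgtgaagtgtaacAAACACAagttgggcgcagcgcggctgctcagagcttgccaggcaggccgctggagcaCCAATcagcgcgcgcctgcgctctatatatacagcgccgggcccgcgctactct
H1f0: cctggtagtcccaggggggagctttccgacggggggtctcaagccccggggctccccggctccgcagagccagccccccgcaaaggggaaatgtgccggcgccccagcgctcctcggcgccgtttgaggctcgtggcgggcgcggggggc
Hist1h1b, Hist1h1e and Hist1h1c each held the H1 box and CCAAT. Of these windows, the exact letters TATAAA were found in Hist1h1b and Hist1h1e only, and H1f0 held none of the 4 motifs. The Hist1h1c window holds the run tatatata near the start site, which the exact search does not count. Of the other linker genes of the cluster, Hist1h1a held CCAAT and TATAAA but no H1 box. Hist1h1d held the H1 box, CCAAT and TATAAA. These are matches of letters in this window and no more.

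The libraries held 1333 to 1738 cells each, with a median of 28611 to 37081 UMIs per cell. Young soft and aged stiff shared 1 cell barcode and no other pair shared any. All 10 myogenic markers were in the tables, and they summed to 14840 to 23454 CPM (counts per 1000000 UMIs of a cell). Markers of other cell types summed to 35.2 to 61.5 CPM for 5 of 6 fibroblast genes. Smooth muscle and pericyte genes, 4 of 5, summed to 66.4 to 84.7 CPM. The sums were 1.35 to 6.64 CPM for 5 of 6 immune genes and 1.48 to 2.32 CPM for 3 of 4 Schwann genes. For 2 of 5 endothelial genes they were at most 0.167 CPM. Ptprc, Kdr and Cdh5 were at or near 0. The immune marker Lyz2 had 0.244, 0.15, 4.92 and 5.1 CPM, and so was higher in both aged libraries. The fibroblast marker Ly6a ranged over 15.5 to 57.7 CPM and the pericyte marker Notch3 over 22.6 to 62 CPM. A cell with at least 1 UMI of Mki67, a marker of cycling cells that peaks in G2 and mitosis, or of Pclaf, a partner of the replication clamp, is called marker-positive. Such cells made up 36.2, 31.4, 14.4 and 12.4% of the libraries, and 22.8, 20.6, 7.35 and 5.7% once each cell was thinned to 2000 UMIs. Cells with both markers made up 25.3, 23.1, 8.48 and 6.62%. The cycling share was thus lower in both aged libraries, and it stands beside every comparison of whole libraries below.

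Of the 52 genes, 16 clustered and 9 variant genes had a mean over the libraries of at least 5 CPM and entered the comparisons across genes. The highest clustered mean below this level was 3.78 CPM, and the lowest above it was 5.3 CPM (Hist1h2be). The variant H2afy2 had 3.39 CPM and H3f3aos 1.15 CPM. A gene can pass such a filter through the cells in which it is high, so counts over these 25 genes describe them only. Clustered genes also have near-identical copies. The share of 30-base words in the last 500 transcript bases that other genes hold too had a median of 12.1% for the 16 clustered genes and 52.4% for all 41, against 0% for all genes that passed. It was 100% for Hist2h2aa1, 99.2% for Hist1h1e (shared with transcripts of Hist1h2be), 93.4% for Hist1h2ap, 58.4% for Hist1h2ae, 55.6% for Hist2h2ac and 50.3% for Hist1h4h. The values of these 6 genes are uncertain because reads may be shared with near-identical copies or, for Hist1h1e, with the H2B gene Hist1h2be. The same limit holds to a lesser degree for Hist2h3c2 (24.8%) and Hist1h4i (17.6%). It also holds for the variant genes H3f3a (32.5%), H2afz (27.7%), H3f3b (21.5%) and H2afj (15.6%). The other 5 variant genes that passed were at 0%. The share was 6.58% for Hist1h1b, 2.21% for Hist1h2bc, and 0% for Hist1h1c, Hist1h1d, Hist1h4d and Hist3h2a.

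Histone RNA followed the proliferation markers in all 4 libraries, but the clustered genes divided. Of the 16 clustered genes 12 were higher in marker-positive than in marker-negative cells and 4 were lower, while all 9 variant genes were higher. Among the 9544 genes tested, 51.5% were higher and 25.2% lower, so many genes differed between these cells. The median log2 difference was 1.89 for the clustered genes, 1.26 for the variant genes and 0.21 for all genes. The test was limma with a trend on log2(mean CPM + 1), with the library as a block and Benjamini-Hochberg adjustment over all genes at a threshold of 0.05. Its 4 differences come from 4 conditions and not from replicates of one, and its scale understates the change of low genes.

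Hist1h1b, a linker H1 gene, had the largest difference among the members. It was at 538, 434, 248 and 227 CPM in marker-positive cells and at 2.96, 2.37, 2.28 and 1.1 CPM in marker-negative cells. The groups lay far apart, with a log2 difference of 6.78 (SE 0.14, limma adjusted p = 1.82e-07) that was positive in 4 of 4 libraries. Marker-positive cells held 96 to 99.3% of its UMIs in a library.

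Other linker genes of the cluster rose less. Hist1h1a was at 41.2, 36.3, 15.7 and 18.6 CPM in positive cells and at 1.67, 0.422, 0.131 and 0.129 CPM in negative cells. Its log2 difference was 4.17 (SE 0.16, limma adjusted p = 1.97e-06), and 2.48 with a pseudocount of 5. Hist1h1e was at 177, 147, 90.4 and 95.5 CPM in positive cells and kept 25.8, 18.6, 19.2 and 13.7 CPM in negative cells, a log2 difference of 2.63 (SE 0.12, limma adjusted p = 3.6e-06). Hist1h1d ranged over 15.4 to 40.1 CPM in positive and 2.95 to 4.48 CPM in negative cells, a log2 difference of 2.49 (SE 0.18). For each of these 3 genes all positive values lay above all negative values.

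Hist1h1c, a linker gene of the same cluster, went the other way. It was at 88, 81.2, 121 and 106 CPM in positive cells and at 134, 135, 157 and 155 CPM in negative cells. Every library was lower in its cycling cells and the ranges did not overlap. The log2 difference was -0.56 (SE 0.06, limma adjusted p = 0.00019), and -0.22 when the cells were split after thinning each to 2000 UMIs.

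The H2A genes of the clusters were higher in marker-positive cells, except 1. Hist1h2ap was at 513, 166, 133 and 502 CPM in positive cells against 2.79, 1.45, 0.546 and 2.35 CPM in negative cells. Its log2 difference was 6.71 (SE 0.19, limma adjusted p = 6.21e-07), and positive cells held 96.6 to 99.1% of its UMIs. Hist1h2ae (log2 4.31, SE 0.16), Hist2h2ac (3.73, SE 0.16) and Hist2h2aa1 (1.30, SE 0.26) were higher in 4 of 4 libraries. With a pseudocount of 5 these 2 last differences were 2.33 and 0.78. Hist3h2a was the lower one, at 16, 16.4, 20.2 and 17.3 CPM in positive and 34.5, 37.8, 27.1 and 26.8 CPM in negative cells (log2 -0.81, SE 0.13, limma adjusted p = 0.00119).

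Of the H2B and H3 genes that passed the filter, Hist1h2bc and Hist2h3c2 were lower in cycling cells and Hist1h2be was not. The 8 clustered H3 genes together were higher, at 48.8, 34.4, 28.4 and 30.4 CPM in positive and 16.1, 16.4, 13.8 and 14.1 CPM in negative cells. The 11 H2B genes summed to 149, 123, 204 and 175 against 350, 335, 319 and 307 CPM. Without Hist1h2bc the other 10 summed to 58.8, 46, 34.1 and 26.9 against 11.6, 9.29, 7.32 and 8.16 CPM. Hist1h2bc, an H2B gene, was at 90.4, 76.7, 169 and 148 CPM in positive cells and at 339, 326, 312 and 299 CPM in negative cells, a log2 difference of -1.46 (SE 0.21, limma adjusted p = 0.000572). Only 5.8 to 12.3% of its UMIs came from marker-positive cells. Hist2h3c2, an H3 gene, was at 1.2, 0.465, 2.88 and 3.53 CPM in positive cells and at 7.2, 9.19, 6.88 and 7.46 CPM in negative cells (log2 -1.66, SE 0.31, limma adjusted p = 0.00244, and -0.87 with a pseudocount of 5). The H2B gene Hist1h2be was slightly higher (0.36, SE 0.11, limma adjusted p = 0.0225). That call ended without young soft, young stiff or aged soft (limma adjusted p = 0.0547, 0.0578 and 0.0743).

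All 3 H4 genes that passed the filter were higher. Hist1h4d ranged over 38 to 78.9 CPM in positive and 1.9 to 6.17 CPM in negative cells (log2 3.59, SE 0.09). Hist1h4i ranged over 44.2 to 67.9 and 21 to 24.5 CPM (log2 1.24, SE 0.08), and Hist1h4h, whose ranges overlapped, over 9.46 to 20.7 and 6.23 to 12.9 CPM (log2 0.48, SE 0.14). Without young soft the call for Hist1h4h ended (limma adjusted p = 0.057).

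**Figure D1:**
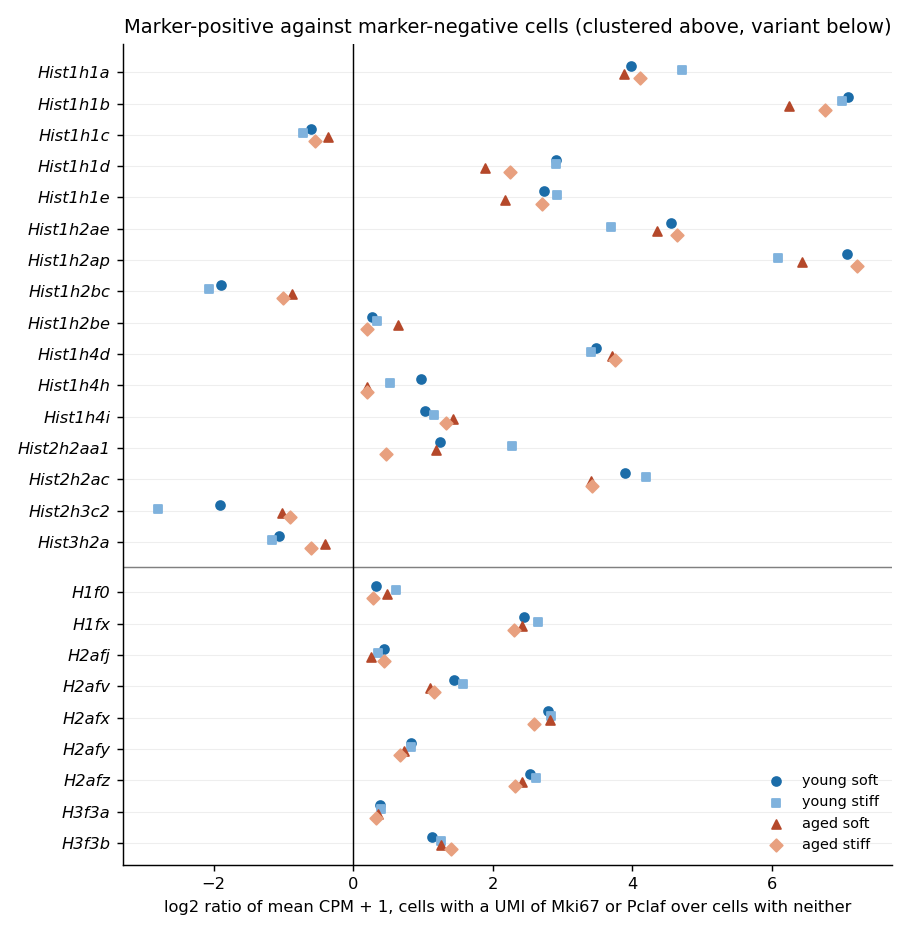
Each point is the log2 ratio of mean CPM + 1 in cells with a UMI of Mki67 or Pclaf over cells with neither, in 1 of the 4 libraries, for the 16 clustered genes (above the line) and 9 variant genes (below it) with at least 5 CPM. Hist1h1b and Hist1h2ap lie farthest right, Hist1h1c, Hist1h2bc, Hist2h3c2 and Hist3h2a lie left of 0 in all 4 libraries, and every variant point lies right of 0.

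The 4 lower genes differed by more in the young than in the aged libraries. The log2 difference was -1.89, -2.07, -0.88 and -1.01 for Hist1h2bc and -1.90, -2.80, -1.02 and -0.90 for Hist2h3c2. It was -1.06, -1.16, -0.41 and -0.61 for Hist3h2a and -0.60, -0.73, -0.37 and -0.54 for Hist1h1c. The ages did not overlap for any of the 4, but with 2 libraries of each age this was not tested. The share of all genes without such an overlap is not given here. Of the marker-positive cells, 38 of 493, 16 of 464, 31 of 192 and 42 of 216 also had a UMI of Ckm, the creatine kinase of differentiated muscle, and the part of these cells in the difference was not tested.

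Of the 25 clustered genes below 5 CPM, 22 were higher in marker-positive cells in all 4 libraries and 1 was lower in all 4, with no test. The same share was not computed over all genes below 5 CPM, so these counts describe the 25 genes only. The H2A gene Hist1h2ab had 16.2, 6.79, 7.06 and 7.63 CPM in positive and at most 0.434 CPM in negative cells. The H3 gene Hist1h3b had 7.58, 3.44, 1.68 and 3.36 CPM in positive and at most 0.139 CPM in negative cells. The lower gene was Hist2h3c1, an H3 gene of the same cluster as Hist2h3c2, with 1.37 to 2.08 CPM in positive and 3.76 to 4.85 CPM in negative cells. The share of 30-base words that other genes hold too was 63.3% for Hist1h2ab, 76% for Hist1h3b and 100% for Hist2h3c1. The values of these genes are therefore uncertain as well. Among the variants, H2afy2, a macroH2A gene, had 8.16 to 10.8 CPM in positive and 1.22 to 2.13 CPM in negative cells.

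The variant genes differed by graded amounts. H2afx, whose product is phosphorylated at DNA breaks, was at 115, 118, 117 and 102 CPM in positive cells and at 15.7, 15.8, 15.7 and 16.1 CPM in negative cells, a log2 difference of 2.76 (SE 0.06, limma adjusted p = 2.32e-07). H2afz, the gene of H2A.Z, was at 2017, 2137, 1906 and 1691 CPM in positive cells against 348, 347, 354 and 337 CPM in negative cells (log2 2.47, SE 0.05). H1fx, a linker variant, was at 143, 173, 183 and 168 CPM against 25.3, 26.9, 33.2 and 33 CPM (log2 2.46, SE 0.06). For these 3 genes the classes lay far apart and the 4 libraries close together within a class.

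Smaller differences were found for H2afv, a second H2A.Z gene (log2 1.32, SE 0.08), and for H2afy, a macroH2A gene (0.76, SE 0.05). The H3.3 genes differed from each other in size: H3f3b ranged over 1121 to 1255 CPM in positive and 425 to 547 CPM in negative cells (log2 1.26, SE 0.05), and H3f3a over 1410 to 1513 and 1099 to 1156 CPM (0.37, SE 0.03). H2afj (0.37, SE 0.05) and the linker variant H1f0 (0.43, SE 0.07, and 0.80 after thinning) differed little. All of these were positive in 4 of 4 libraries.

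Genes listed for histone message supply or for carrying histones were mostly higher in marker-positive cells too. Of 17 genes listed for the supply of replication-dependent histone RNA, 15 were tested, 13 were higher and 1, Sympk, was lower (-0.27, SE 0.08), with a median log2 difference of 0.72. The 13 include the RNA decay genes Upf1 (0.15) and Lsm1 (0.16). They also include Coasy (0.29), a gene of coenzyme A synthesis and not of histone RNA. The largest differences were those of Slbp (2.17, SE 0.08), the stem-loop binding protein, Casp8ap2 (1.71, SE 0.06), a part of histone locus bodies, Eri1 (1.62, SE 0.06), a nuclease that trims histone messages, and Npat (0.92, SE 0.08), a coactivator of histone genes. Of 27 chaperone and deposition genes 26 were tested, 24 were higher and 0 lower, with a median of 1.10. They were led by Chaf1a (3.69, SE 0.09) and Chaf1b (3.19, SE 0.13), subunits of chromatin assembly factor 1, the H3-H4 chaperone gene Asf1b (3.54, SE 0.24) and Mcm2 (3.0, SE 0.10), a helicase subunit that binds histones. Over all 9544 genes tested, 51.5% were higher and 25.2% lower, with a median of 0.21. Slbp, Chaf1b and Mcm2 are also on the S phase list below.

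The cycle lists moved with the markers as well. All 30 S phase genes and all 28 G2 and M phase genes were higher, with medians of 3.59 and 5.69. The S phase list was led by Uhrf1 (5.03), Lig1 (4.69), Mcm3 (4.66) and Mcm5 (4.44), and the G2 and M phase list by Top2a (7.69), Nusap1 (6.86), Hmmr (6.83) and Ccna2 (6.58). Cells were chosen by markers of the same programme, so these lists describe the split.

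Summed clustered histone RNA was highest in cells that had both markers. The summed level of the 41 clustered genes was 2606, 1646, 1538 and 2220 CPM in cells with both markers. It was 386, 317, 433 and 457 CPM in cells with Pclaf alone and 375, 455, 599 and 516 CPM in cells with Mki67 alone. Marker-negative cells had 626, 593, 587 and 572 CPM, so the sums of single-marker cells were not above them except in aged soft with Mki67 alone. Most of the marker-negative sum came from Hist1h1c and Hist1h2bc, which were lower in cycling cells. Without these 2 genes, a choice made after seeing the data, the sums were 2449, 1501, 1256 and 1989 CPM with both markers and 154, 132, 118 and 118 CPM in marker-negative cells. They were 165, 129, 160.2 and 196 CPM with Pclaf alone and 108, 194, 192 and 163 CPM with Mki67 alone, each above the marker-negative sum in 3 of 4 libraries. Hist1h1b had 763, 584, 406 and 416 CPM with both markers, 18.2, 16.5, 26.2 and 13.6 CPM with Pclaf alone and 16.8, 9.51, 9.78 and 4.34 CPM with Mki67 alone, against 2.96, 2.37, 2.28 and 1.1 CPM in marker-negative cells. Hist1h2ap had 17.6, 5.37, 5.2 and 52.7 CPM with Pclaf alone and 4.01, 9.85, 2.09 and 5.19 CPM with Mki67 alone, against 2.79, 1.45, 0.546 and 2.35 CPM. Both genes were above marker-negative cells in all 4 libraries in either class. Variant sums were 6876, 6953, 7213 and 7060 CPM with both markers, 3773 to 4158 CPM with Pclaf alone and 2984 to 4393 CPM with Mki67 alone. There were 61 to 128 cells with Pclaf alone in a library and 12 to 22 with Mki67 alone. The median UMI count was 30201, 24157, 23373 and 29890 with Pclaf alone and 34594, 28544, 28611 and 27948 with both markers, and its part in the difference was not tested.

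**Figure D2:**
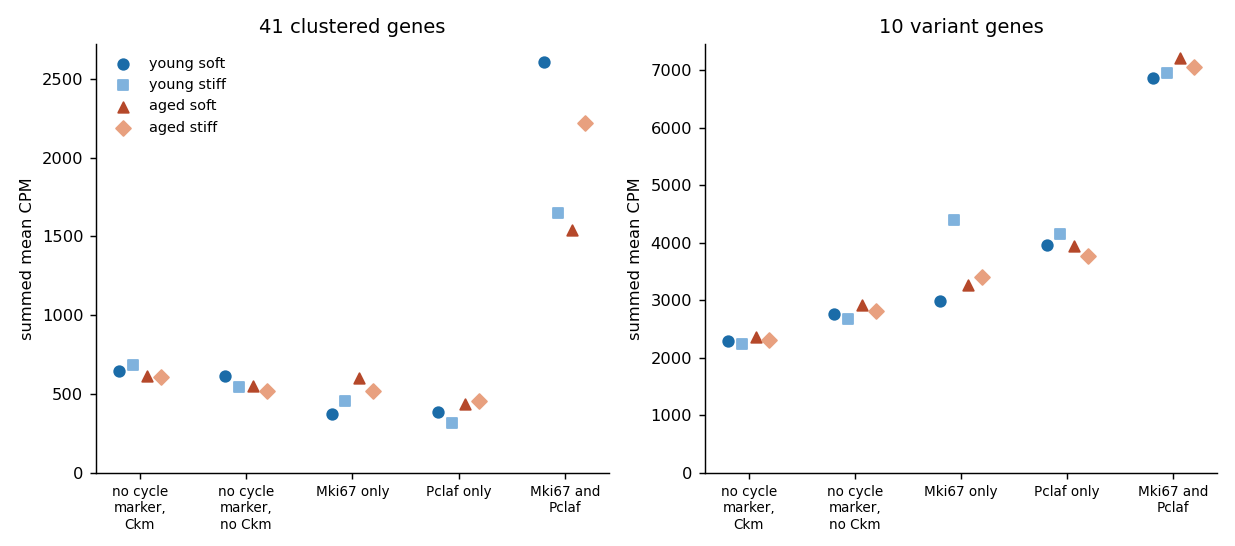
Summed mean CPM of the 41 clustered genes (left) and 10 variant genes (right) in 5 classes of cells, with 1 point for each library. The clustered sums are 1538 to 2606 CPM in cells with both markers and at most 682 CPM in the other classes, while the variant sums are lowest in cells with Ckm and highest with both markers.

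Cells with Pclaf alone and cells with Mki67 alone were also compared directly, and no histone gene differed past the threshold. With limma and Benjamini-Hochberg adjustment, 0 of 9544 genes were higher (0%) and 0 lower (0%). At an unadjusted p under 0.05 there were 954 genes, 4 of them among the 25 histone genes. Voom on summed UMI counts called 28 genes, 0 of them histone genes. Hist1h1b had a log2 difference of 0.91 (SE 0.33, limma adjusted p = 0.396) and Hist1h2bc one of -0.40 (SE 0.13, limma adjusted p = 0.359), each with the same sign in 4 of 4 libraries. A sum held as few as 12 cells. On simulated data this test called 36 of 100 genes changed by a log2 of 1 and 71 of 100 changed by 2. The proliferation test called 93 and 96 of 100. The lack of calls therefore does not show equal levels in the 2 classes.

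Within cells that had both markers, summed clustered and summed variant RNA ran differently along the cycle. These cells were ranked in each library by the share of S phase list UMIs among the UMIs of the S phase and the G2 and M phase lists, and divided into 3 groups of equal size. The division was added after the data had been seen, is a range and not a cell type, and has no test. From the low over the middle to the high S share group, the clustered sums were 1780, 3663 and 2375 CPM in young soft and 756, 2327 and 1857 CPM in young stiff. They were 925, 1776 and 1922 CPM in aged soft and 1593, 3117 and 1966 CPM in aged stiff. The low S share group was lowest in all 4 libraries and the middle group highest in 3 of 4, and leaving out Hist1h2ap kept these orders. Variant sums went from 7634, 7771, 8100 and 8218 CPM in the low group to 5576, 5908, 5823 and 5928 CPM in the high group. Between 35 and 104 cells of a library lay within 5 percentage points of a limit. The median UMI count was 28627 to 40084 in the low group and 24633 to 32876 in the high group, and its part was not tested.

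Single members differed along this order. Hist1h1b had 461, 1097 and 732 CPM in young soft, 199, 857 and 698 in young stiff, 121, 499 and 604 in aged soft and 277, 591 and 385 in aged stiff, from the low to the high group. H2afz, in the same order, had 2900, 2764 and 1827 CPM in young soft and 3028, 2293 and 1934 CPM in aged stiff. H2afx had 199.9, 149 and 111 CPM in young soft and 223, 167 and 114 CPM in aged stiff. Both variants were thus highest where Hist1h1b was lowest. H2afy was nearly level, with 136, 135 and 143 CPM in young soft and 149, 144 and 153 CPM in aged stiff. Not every clustered gene was lowest in the low group. From the low to the high group, Hist1h4d went from 118 to 72 CPM in young soft and from 45.4 to 58.7 in young stiff. It went from 75 to 72.6 CPM in aged soft and from 74.6 to 34.7 in aged stiff, and its middle group was highest in every library.

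**Figure D3:**
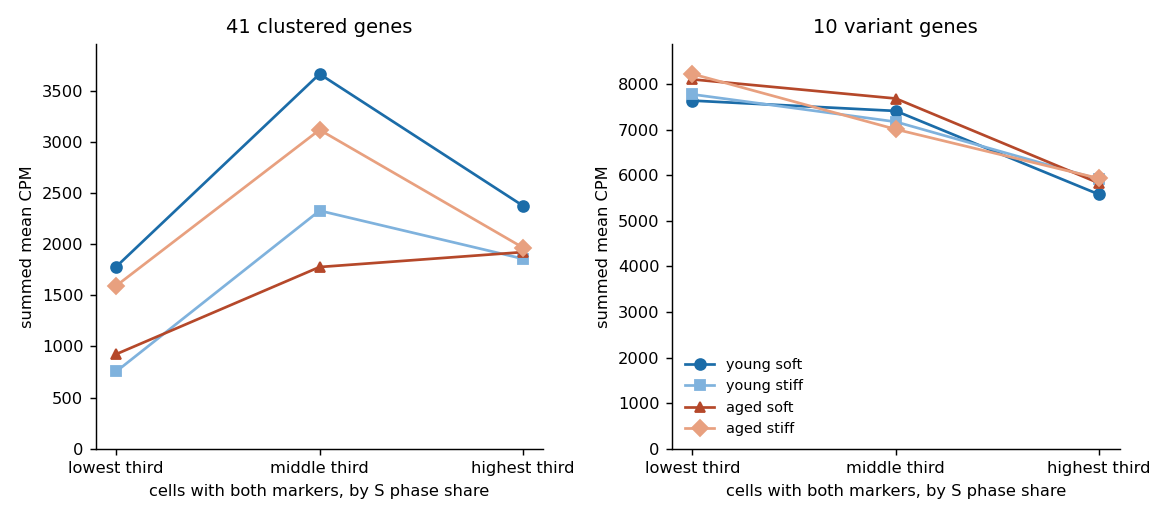
Summed mean CPM of clustered genes (left) and variant genes (right) in cells with both markers, divided in each library into 3 groups of equal size by S phase share (horizontal axis), with 1 line for each library. The clustered lines are lowest in the low S share group, and the variant lines are lowest in the high S share group.

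A second split separated marker-negative cells with a UMI of Ckm from those without. Of the 16 clustered genes 2 were higher with Ckm, 6 lower and 8 not called, and of the 9 variant genes 0 were higher, 5 lower and 4 not called. Over all 9545 genes 13.5% were higher and 53.4% lower, and the shares of members called lower were below this for the clustered and close to it for the variant genes. The median log2 difference was -0.13 for the clustered genes, -0.13 for the variant genes and -0.21 for all genes, by the same limma test. Cycle genes moved with this split too: 24 of 30 S phase genes were lower with Ckm and 2 higher (median -0.57), and 12 of 28 G2 and M phase genes were lower and 0 higher (median -0.29). Mcm3, a helicase subunit, differed by -1.53 (SE 0.22), the replication licensing gene Cdt1 by -1.69 (SE 0.17) and Top2a by -1.08 (SE 0.20), and their part in the histone values was not tested. The median UMI count was 41793, 33552, 38574 and 41394 with Ckm and 32278, 25808, 26394 and 30690 without.

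Hist1h2bc, lower in cycling cells, was higher with Ckm, at 375, 397, 347 and 333 CPM against 316, 288, 264 and 241 CPM (log2 0.39, SE 0.04, limma adjusted p = 0.000153, 4 of 4 libraries). Hist2h3c2 was at 7.65, 10.1, 8.33 and 8.84 CPM with Ckm and 6.92, 8.71, 4.86 and 5.14 CPM without (log2 0.42, SE 0.12, limma adjusted p = 0.0165). That call ended under 5 alternatives, among them the split of thinned cells (limma adjusted p = 0.639) and the fits without aged soft (0.071) or aged stiff (0.0676).

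The 6 clustered genes that were lower with Ckm were all among those higher in cycling cells. Hist1h1b was at 0.675, 0.106, 0.273 and 0.273 CPM with Ckm and at 4.4, 3.56, 5.07 and 2.48 CPM without (log2 -1.86, SE 0.16, and -0.73 with a pseudocount of 5). Hist1h1e (-0.49, SE 0.08), Hist1h4d (-0.84, SE 0.13), Hist1h2ae (-0.55, SE 0.12), Hist2h2ac (-0.64, SE 0.16) and Hist1h2ap (-0.54, SE 0.15) were lower in 4 of 4 libraries. The call for Hist1h2ap ended without aged stiff (limma adjusted p = 0.0552). The 8 genes without a call had log2 differences from -0.46 (Hist1h1a, SE 0.25) to 0.17 (Hist1h2be, SE 0.14), with Hist1h1c at 0.08 (SE 0.06) and Hist3h2a at 0.05 (SE 0.06).

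Among the variants H2afj had the lowest log2 difference, at 99.3, 104, 111 and 109.6 CPM with Ckm against 187, 195, 208 and 210.3 CPM without (log2 -0.91, SE 0.03, limma adjusted p = 1.04e-06). H3f3b was at 395, 379, 349 and 328 CPM against 643, 595, 658 and 589 CPM (log2 -0.78, SE 0.05), H1fx differed by -0.66 (SE 0.06) and H2afy by -0.42 (SE 0.05). For H2afj and H3f3b every value with Ckm lay below every value without. H3f3a (-0.07, SE 0.03), H1f0 (-0.02, SE 0.07), H2afx (-0.09, SE 0.07) and H2afv (-0.10, SE 0.04) did not pass the test. H2afz was lower by a small step (-0.13, SE 0.03), a call that ended with voom (adjusted p = 0.153) and without young stiff (limma adjusted p = 0.0518).

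Over whole libraries, many clustered genes were lower in aged than in young cells. Here and below, calls of 1.5-fold between libraries are made on log2(mean CPM + 1), and UMI ratios compare UMIs summed over all cells, relative to each library's total. On soft substrate 9 of the 16 clustered genes were at least 1.5-fold lower and 0 higher (14.2% and 3.64% of 9546 genes), and on stiff substrate 7 were lower and 1, Hist1h4h, was higher (16% and 3.88%). The median log2 ratio of the clustered genes was -1.42 on soft and -0.25 on stiff, against -0.15 and -0.16 for all genes. Hist1h1b was at 197 and 138 CPM in the young and at 37.7 and 29.2 CPM in the aged libraries. The ratio of its UMIs, aged over young, was 0.162 on soft (95% interval 0.153 to 0.171) and 0.156 on stiff (0.147 to 0.165).

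Of the other linker genes, Hist1h1e was at 80.6 and 58.9 CPM in young and 29.4 and 23.9 CPM in aged libraries, Hist1h1a at 16 and 11.7 against 2.37 and 2.42 CPM, and Hist1h1d at 17.4 and 15.2 against 5.14 and 4.79 CPM. The H4 gene Hist1h4d was at 32.5 and 19.3 against 10.0 and 6.39 CPM and the H2A genes Hist2h2ac at 15 and 9.65 against 3.81 and 2.58 CPM and Hist1h2ae at 28.4 and 11.7 against 6.31 and 6.99 CPM. Both aged libraries lay below both young ones for each of these genes, as did the share of cycling cells. How many of all genes were ordered in this way is not given here, so the order describes these genes only. Hist1h2ap and Hist2h2aa1 passed 1.5-fold on soft substrate only.

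Of the 4 clustered genes that were lower in cycling cells, Hist1h1c and Hist1h2bc were higher in both aged libraries than in either young library. Hist1h1c was at 117 and 118 CPM in the young and 152 and 149 CPM in the aged libraries, and Hist1h2bc at 249 and 248 CPM in the young and 291 and 279.9 CPM in the aged. H1f0, a linker variant, was at 68.7 and 76.3 CPM in the young and 90.5 and 90.5 CPM in the aged libraries. None of these 3 genes passed 1.5-fold. Hist3h2a (27.8, 31.1, 26.1 and 25.6 CPM), Hist2h3c2 (5.03, 6.45, 6.3 and 6.97 CPM), Hist1h4i (29.4, 30.8, 30.8 and 26.9 CPM) and Hist1h2be (6.75, 5.39, 4.61 and 4.44 CPM) did not pass it either.

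Of the 9 variant genes 2 were at least 1.5-fold lower with age on each substrate and 0 higher. H2afz was at 953 and 909 CPM in the young and 578 and 505 CPM in the aged libraries, and H2afx at 51.6 and 48 against 30.3 and 26.8 CPM. H3f3b was at 781 and 751 against 575 and 512 CPM, H3f3a at 1285 and 1211 against 1183 and 1155 CPM, H1fx at 67.8 and 72.8 against 54.7 and 49.7 CPM and H2afv at 332 and 340.5 against 302 and 283 CPM. These 6 genes were all lower in both aged libraries than in either young one. The share of all genes separated in this way is not given here. Of all 9546 genes, 6348 on soft and 6370 on stiff substrate were lower with age by any amount. On stiff substrate H3f3b and H1fx did not pass by mean CPM, but their UMI ratios, 0.629 (0.619 to 0.639) and 0.62 (0.589 to 0.652), were past 1.5-fold lower. H2afj (154 to 178 CPM) and H2afy (84.8 to 91.9 CPM) varied little.

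**Figure D4:**
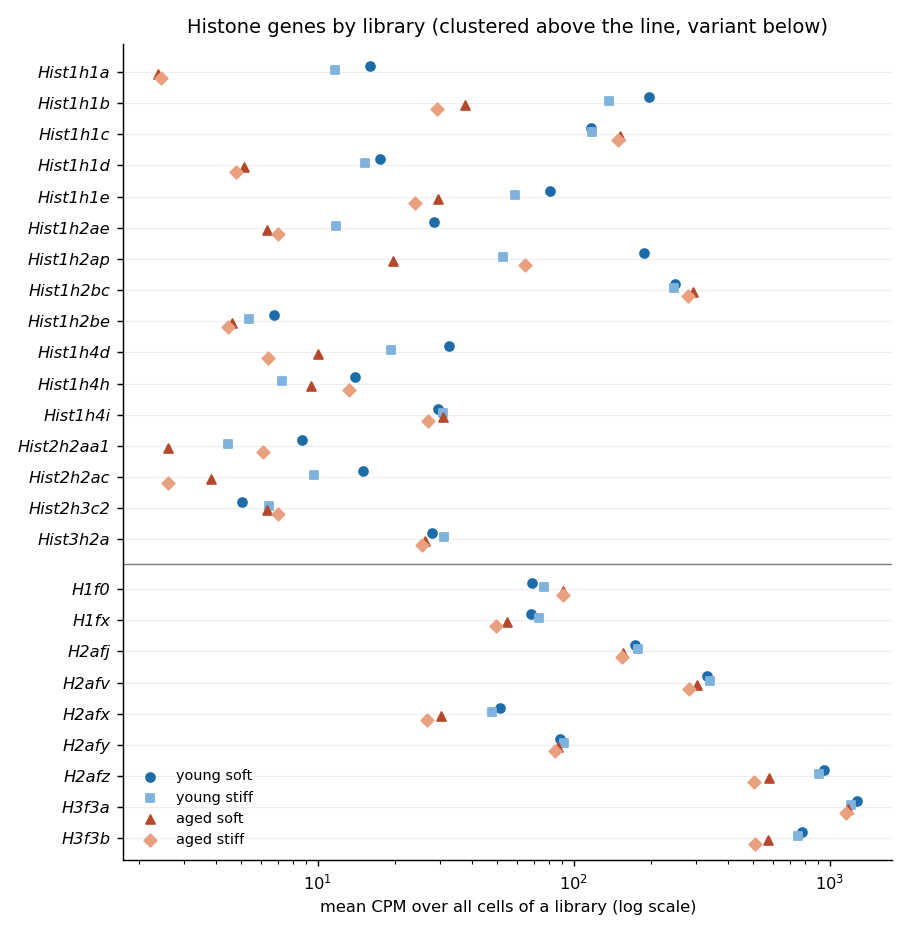
Mean CPM over all cells of each library, on a log axis, for the 16 clustered genes (above the line) and 9 variant genes (below it) with at least 5 CPM. For Hist1h1a, Hist1h1b, Hist1h1d, Hist1h1e, Hist1h4d and Hist2h2ac both aged libraries lie left of both young ones, whereas Hist1h1c, Hist1h2bc and H1f0 lie to the right in the aged libraries.

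The same comparison within cells that had both markers, added after the data had been seen, gave smaller median ratios. There 9 of the 16 clustered genes were at least 1.5-fold lower in aged soft than in young soft cells and 3 higher (7.17% and 4.02% of genes), with a median log2 ratio of -0.74. On stiff substrate 1 was lower and 4 were higher (5.33% and 4.4%), with a median of -0.10. Of the variant genes 1, H1f0, was higher on soft and 0 passed on stiff, with medians of 0.08 and 0.07. In marker-negative cells the clustered medians were -0.36 and -0.21.

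Within cells with both markers H2afz was nearly level, at 2499, 2496, 2585 and 2424 CPM, as it was in marker-negative cells, at 348, 347, 354 and 337 CPM, while its whole-library values were lower with age. Hist1h1b remained lower in both aged libraries, at 763, 584, 406 and 416 CPM. So did Hist1h1a, at 58.5, 48.4, 26.4 and 32.8 CPM, and Hist1h1d, at 56.3, 51.8, 24.5 and 29.5 CPM. Hist1h2bc was higher in the aged cells with both markers, at 53.6, 54, 158 and 106 CPM. Of these cells 9, 3, 8 and 6 had a UMI of Ckm, out of 344, 341, 113 and 115, and their part was not tested.

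Substrate stiffness went with differences in fewer genes. In young cells 6 of the 16 clustered genes were at least 1.5-fold lower on stiff than on soft substrate and 0 higher (0.22% and 0.0524% of 9546 genes), and 0 variant genes passed. Hist1h2ap had 188 CPM on the soft and 53.1 CPM on the stiff substrate, a UMI ratio of 0.286 (95% interval 0.273 to 0.299). Hist1h2ae was at 28.4 and 11.7 CPM, a ratio of 0.415 (0.375 to 0.459). The others were Hist1h4h (13.9 and 7.25 CPM), Hist2h2aa1 (8.65 and 4.45 CPM), Hist1h4d (32.5 and 19.3 CPM) and Hist2h2ac (15 and 9.65 CPM). The UMI ratio of Hist2h2ac, 0.677 (0.601 to 0.761), did not reach 1.5-fold. The share of marker-positive cells was 36.2% on soft and 31.4% on stiff. Within cells with both markers the log2 ratio was -1.70 for Hist1h2ap, -1.22 for Hist1h2ae, -1.13 for Hist1h4h, -0.63 for Hist1h4d, -0.46 for Hist2h2ac and -0.41 for Hist2h2aa1.

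In aged cells 2 clustered genes were at least 1.5-fold higher on stiff and 0 lower (0.147% and 0.325% of genes), and again 0 variant genes passed. Hist1h2ap had 19.6 CPM on the soft and 64.5 CPM on the stiff substrate, a UMI ratio of 3 (2.78 to 3.25). Hist2h2aa1 was at 2.6 and 6.08 CPM, a ratio of 2.42 (1.98 to 2.97). Hist1h4h was at 9.43 and 13.2 CPM and did not pass 1.5-fold. The 0 lower calls hold on the log2(CPM + 1) scale only: Hist1h4d, at 10.0 and 6.39 CPM, had a log2 ratio of -0.58 there and a UMI ratio of 0.577 (0.499 to 0.667), which is past 1.5-fold lower. Hist2h2ac, at 3.81 and 2.58 CPM, likewise had -0.42 and a UMI ratio of 0.622 (0.492 to 0.785).

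Hist1h2ap and Hist2h2aa1 thus had opposite stiffness ratios in the ages, which held for 10 of 9546 genes (0.105%). In all 10 the ratio of stiff over soft was below 1 in young and above 1 in aged cells. At least 10% of the 30-base words were shared with other genes for 9 of the 10, against 12.4% of 9535 genes, and the part of shared sequence in the ratios was not tested. Within cells with both markers Hist1h2ap was at 729, 224, 223 and 906 CPM, so that young soft and aged stiff stood together above the other libraries. The H2A gene Hist1h2ae, at 105, 44.5, 62.7 and 86 CPM, and the H4 gene Hist1h4h, at 27.4, 12, 13.2 and 20.8 CPM, had the same pair of libraries on top. Hist1h1b did not, as its values above show. Neither did Hist2h2aa1, at 19.8, 14.6, 8.42 and 12 CPM, with both young libraries above both aged ones. Its log2 stiffness ratios in these cells, -0.41 in young and 0.46 in aged, did not reach 1.5-fold. The median UMI count per cell over whole libraries was 35606, 28611, 33315 and 37081, also highest in young soft and aged stiff. In cells with both markers it was 34594, 28544, 28611 and 27948, and the part of depth in these ratios was not tested.

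**Figure D5:**
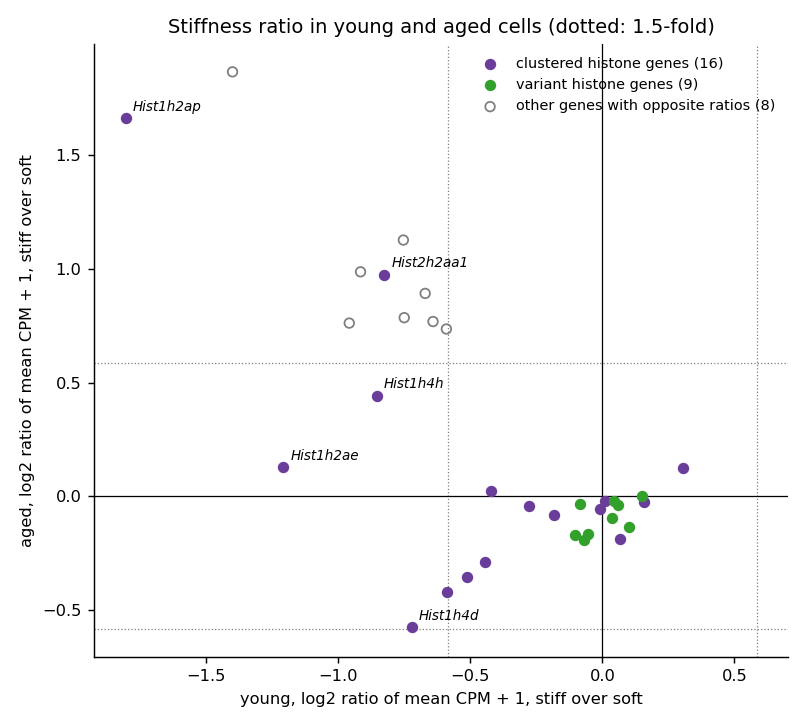
Log2 ratio of mean CPM + 1, stiff over soft, in young (horizontal) and aged libraries (vertical) for the 25 histone genes with at least 5 CPM and the 8 other genes past 1.5-fold (dotted lines) with opposite signs. Hist1h2ap and Hist2h2aa1 lie in the upper left field, and the variant genes lie within 1.5-fold on both axes.

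By family, the clustered H2A genes had the widest range over the libraries. Their sum over 10 genes was 285, 119.9, 63.3 and 110.4 CPM, in which Hist1h2ap was the largest part in 3 libraries and Hist3h2a in aged soft. The 5 clustered H1 genes summed to 428, 342, 226 and 209.6 CPM, the 7 H4 genes to 82, 61.9, 52.6 and 48.8 CPM and the 8 H3 genes to 28, 22.1, 15.9 and 16.2 CPM, with both aged libraries below both young ones in each. The 11 H2B genes, which Hist1h2bc dominated, summed to 278, 268, 303 and 290.3 CPM, with both aged libraries above both young ones. Without Hist1h2bc the other 10 summed to 28.7, 20.8, 11.2 and 10.5 CPM, with both aged libraries below both young ones. All 41 clustered genes summed to 1101, 814, 661 and 675 CPM, and to 913, 761, 641 and 611 CPM without Hist1h2ap. The 10 variant genes summed to 3804, 3684, 3060 and 2864 CPM.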

How the data were processed

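The values the authors deposited are log2(CPM + 1) per gene and cell, judged from the values, since each cell sums to 1000000 after the log2 is undone. Per the submitters' processing notes the tools include Partek and Cell Ranger 6.1.2, whose roles are not stated; alignment, build, annotation and any removal of doublets are not given in the sources used here, and no doublet caller was run. UMI counts were recovered by taking the most frequent value above 0 in a cell as 1 UMI, which made 99.95 to 99.96% of a library's values whole within 0.05. Cells needed 500 genes or more and no more than 20% mitochondrial UMIs. CPM were averaged over the cells of a library or class.

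Tests used limma 3.58.1 in R 4.3.3, with a trend on log2(mean CPM + 1) of 2 cell sums per library, the library as a block, genes of at least 5 CPM, and Benjamini-Hochberg adjustment; the split's own markers were left out. The scripts were tested on simulated data. Alternatives were a pseudocount of 5, a filter of 20 CPM or none, thinned cells, 2 marker UMIs, each marker alone, other scalings, all cells, marker-positive or marker-negative cells only, each library left out and, chosen after seeing the data, limma voom on summed UMI counts. UMI ratios have exact conditional binomial intervals at 95%. Every member of at least 5 CPM is named, with up to 6 below it and the 4 genes of each list with the largest difference. Members, lists and tests were chosen with earlier results of these data known.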

Additional observations from a re-analysis of the deposited data

Results flagged for a closer look

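Hist1h2ap had a log2 ratio of stiff over soft that was 3.47 higher in aged than in young cells, with ratios of -1.80 in young and 1.67 in aged cells. The same difference was 1.80 for Hist2h2aa1, with ratios of -0.82 and 0.98. Both stand out because the ages moved in opposite directions, and with 1 library for each combination the difference was not tested. In cells with both markers the ratios were -1.70 and 2.02 for Hist1h2ap and -0.41 and 0.46 for Hist2h2aa1. In marker-negative cells they were -0.63 and 1.12, and -1.38 and 1.15. Other genes held 93.4% and 100% of the 30-base words at the 3′ ends of these genes. Median UMIs per cell of whole libraries were 35606, 28611, 33315 and 37081, highest in young soft and aged stiff too. The part of depth was not tested.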

How the results depend on the processing

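No member called in a test reversed under any alternative run: of the alternative values, 287 kept the call and 4 lost it in the proliferation test, and 118 kept it and 8 lost it in the Ckm test. Clustered genes higher in marker-positive cells numbered 12, 4 with a filter of 20 CPM and 34 without a filter. Clustered genes higher with Ckm numbered 2, and 1 with 20 CPM, voom, thinned cells or at least 2 marker UMIs; leaving out each library gave 1 to 2. Past 1.5-fold, aged against young on soft had 11 histone genes, 5 with 20 CPM, 30 without a filter and 5 in marker-negative cells; on stiff it had 10, 4, 24 and 4. Young stiff against soft had 6, 1 with 20 CPM, 12 without a filter and 3 in marker-positive cells. Aged stiff against soft had 2, and 1 with 20 CPM, a pseudocount of 5 or marker-positive cells. The counts past 1.5-fold pool higher and lower calls. The shares of all genes called under these alternatives are not given here, so the counts describe the histone genes only.

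For young stiff against soft, the log2 ratio of summed CPM of the clustered genes was -0.44, and -0.58 in marker-positive cells, -0.078 in marker-negative cells and -0.39 with median-of-ratios scaling, and -0.41 from UMIs summed over cells. For aged stiff against soft, the log2 ratio of summed CPM of the clustered genes was 0.031, and 0.35 in marker-positive cells, -0.037 in marker-negative cells and 0.079 with median-of-ratios scaling, and 0.0046 from UMIs summed over cells. For aged against young on soft, the log2 ratio of summed CPM of the clustered genes was -0.74, and -0.82 in marker-positive cells, -0.093 in marker-negative cells and -0.57 with median-of-ratios scaling. For aged against young on stiff, the log2 ratio of summed CPM of the clustered genes was -0.27, and 0.11 in marker-positive cells, -0.051 in marker-negative cells and -0.098 with median-of-ratios scaling, and -0.34 from UMIs summed over cells. For young stiff against soft, the log2 ratio of summed CPM of the variant genes was -0.046, and 0.063 in marker-positive cells, -0.032 in marker-negative cells and -0.0058 with median-of-ratios scaling. For aged stiff against soft, the log2 ratio of summed CPM of the variant genes was -0.095, and -0.082 in marker-positive cells, -0.060 in marker-negative cells and -0.048 with median-of-ratios scaling. For aged against young on soft, the log2 ratio of summed CPM of the variant genes was -0.31, and -0.036 in marker-positive cells, 0.0089 in marker-negative cells and -0.15 with median-of-ratios scaling, and -0.35 from UMIs summed over cells. For aged against young on stiff, the log2 ratio of summed CPM of the variant genes was -0.36, and -0.18 in marker-positive cells, -0.019 in marker-negative cells and -0.19 with median-of-ratios scaling, and -0.40 from UMIs summed over cells. The cause of these changes was not tested.

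No paired analysis was possible between libraries because each group has 1 library; the tests of cell classes have the library as a block. The planned edgeR test was not run because the deposited unit is log2; voom on recovered UMI counts, chosen after seeing the data, took its place. At least 2 marker UMIs was not run for the single-marker test, where a sum would hold 1 cell. Precision is limited by depth for the genes below 5 CPM and by the number of cells, 12 to 22 a library, for those with Mki67 alone.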
